A study of Mus musculus with 3 samples.

Results

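Immediate early transcription factors are the first genes that a cell switches on when a growth factor, serum or mechanical cue arrives, because their transcription needs no new protein. Here 10 of them, Fos, Fosb, Fosl1, Fosl2, Jun, Junb, Egr1, Egr2, Nr4a1 and Maff, were followed in stromal feeder cells with and without a Notch ligand. They were found by gene symbol in the platform's annotation, older synonyms included, and are 10 of the 16390 genes that the annotation names singly. Each was read by 1 probe. RNA from 3 cultures was hybridised, 1 array each, as follows. The OP9-DL cells expressed the Notch ligand Delta-like 1 and green fluorescent protein (GFP), the OP9-GFP cells expressed GFP alone, and the OP9 cells were the unmodified control. OP9 is a stromal line of B6C3Fe-a/a-Csf1op/Csf1op mice, made from the skull vault (calvaria) of a newborn, and supports blood cell growth in culture. All 3 lines therefore carry the Csf1op mutation, which removes macrophage colony-stimulating factor, were kept in aMEM with 20% serum, and received no treatment. The labels used here do not say whether a modified line is 1 clone or a pool.

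Fos and Jun proteins share a leucine zipper through which they pair to form AP-1, a dimer that binds TGANTCA elements. Jun proteins also pair with themselves, whereas Fos proteins need a partner. Egr1 and Egr2 bind DNA through zinc fingers, Nr4a1 is an orphan nuclear receptor, and Maff is a small Maf protein that has a zipper but no activation domain of its own. In fibroblasts and stromal cells Fos and Egr1 transcripts peak and vanish quickly after a serum pulse, and Fosl1 lasts longer and is kept up by steady kinase signalling.

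The values are the authors' probe intensities, in which the median probe of each array has an intensity of 20. Of 23473 probes, 15581 had a value on all 3 arrays and a mean log2 intensity at or above the 25th percentile, equal to an intensity of 6.13. These 15581 are called compared probes below, and differences were read at a threshold of 2-fold. This brightness limit of 6.13 applies to the mean, so a compared probe can lie under it on single arrays. The size of its difference is then uncertain. With 1 array for each line no replicate error exists, so no test was run, and a difference between lines cannot be told apart from one between the cultures or arrays. The introduced ligand matched its label, with Dll1 at 333.3 on the OP9-DL array, against 20.5 on OP9-GFP and 14.0 on OP9. Of 11 stromal markers 8 were bright enough to compare, with summed intensities over the list of 57517, 49408 and 43979 on the OP9-DL, OP9-GFP and OP9 arrays, while Thy1, Dcn and Postn were dimmer. Those sums were mostly Vim (32110, 25328 and 18420) and S100a4 (19147, 16041 and 16785). Some other stromal markers were lowest on OP9-DL, with Col1a2 at 5145, 5922 and 6613, Pdgfrb at 221.1, 277.8 and 418.3 and Col3a1 at 195.9, 936.4 and 660.5. Col1a1 had 557.0, 712.9 and 269.3, lowest on OP9. The list's median log2 difference was -0.34 in OP9-DL against OP9-GFP and -0.13 in OP9-DL against OP9. Of 9 mast cell markers with a named probe 4 were compared, and the whole list summed to 886.5, 70.7 and 79.6, mostly Tpsab1 (818.9, 9.0 and 20.6). Kit, the defining receptor of mast cells, was blank on the OP9-DL and OP9-GFP arrays and stood at 1.6 on OP9. The 10 other blood cell markers with a named probe summed to 236.0, 113.7 and 102.3, of which Cd48 had 114.4, 3.0 and 2.1, and Ptprc stayed at 2.8, 2.5 and 2.1. Endothelial marker sums were 31.7, 27.4 and 38.5, and epithelial ones 48.4, 53.0 and 44.2. The part of these markers in the results below was not tested, and in bulk RNA fewer cells of a type cannot be told apart from less RNA per cell.

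Of the 10 factors, 9 were bright enough to compare, and the exception was Fos. Jun, Nr4a1 and Maff differed by more than 2-fold between some pair of arrays, each in its own pattern, while the Fos relatives, Junb and both Egr genes stayed within 2-fold. Jun was lower on the OP9 array than on both modified lines, Nr4a1 was lowest on OP9-DL and highest on OP9, and Maff was highest on OP9-GFP.

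**Figure D1:**
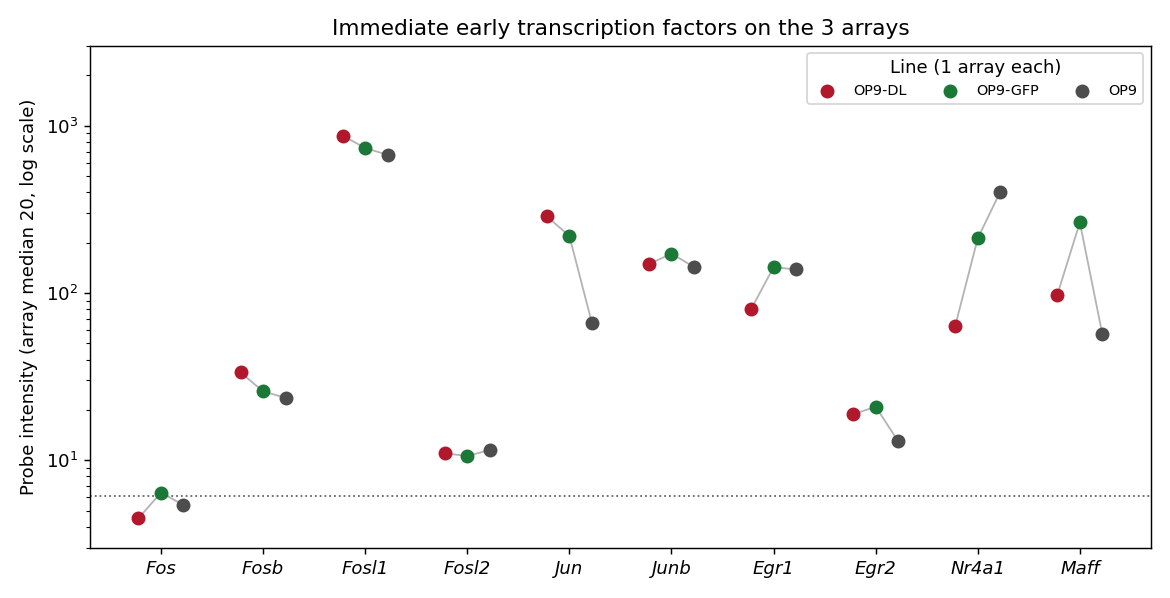
Intensity of each factor's probe on the OP9-DL, OP9-GFP and OP9 arrays (vertical log axis, array median 20), 1 point per array with no error. The dotted line is the brightness limit of 6.13, under which the Fos probe averages, and the steep lines are Jun, Nr4a1 and Maff; heights of different genes come from different probes and cannot be set against each other.

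Jun encodes c-Jun, the activating partner in the classical AP-1 dimer. Its probe had an intensity of 286.6 on the OP9-DL array, 219.5 on OP9-GFP and 66.5 on OP9. Both GFP-carrying lines were thus high and the parental line low. OP9-GFP was 3.30-fold above OP9 and OP9-DL was 4.31-fold above OP9, but OP9-DL exceeded OP9-GFP by no more than 1.31-fold. In the comparison of OP9-GFP with OP9, 0.924% of the compared probes were at least as far above 0 as Jun, and in OP9-DL against OP9 0.648% were. Junb, which pairs with the same Fos proteins and is a weaker activator than c-Jun, had 148.6, 172.0 and 143.0 on the OP9-DL, OP9-GFP and OP9 arrays. Its 3 values lay within 1.20-fold, with no low value on OP9.

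The RefSeq promoter of Jun is shown because Jun had the largest excess of OP9-DL over OP9 among the 10 factors. It covers 250 bases before to 50 after the start site, on the minus strand of GRCm38.p6 at chr4:95052173-95052472. Capitals mark TGACATCA, a variant of the AP-1 element, which begins 45 bases before the start site, and a MEF2 box that begins 33 bases before it.

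Jun: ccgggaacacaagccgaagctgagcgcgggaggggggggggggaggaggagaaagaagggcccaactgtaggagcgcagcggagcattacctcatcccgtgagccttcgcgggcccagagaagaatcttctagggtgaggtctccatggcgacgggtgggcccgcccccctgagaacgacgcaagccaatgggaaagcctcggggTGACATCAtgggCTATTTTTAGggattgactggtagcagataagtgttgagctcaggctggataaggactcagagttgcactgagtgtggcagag

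Jun promoters are known to be driven by factors bound at such a variant element and at the MEF2 box, in human and rodent cells. Both motifs were searched after the sequence had been read. On either strand TGACATCA occurred in 3.62% of 32851 mouse promoters of the same length, and the MEF2 box in 0.56%. Among the factors with a listed promoter, TGACATCA was also found for Maff, at start 3, again beginning 45 bases before the start site. None of the 6 motifs listed for the search (below) was found in the Jun window.

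The Fos family was close between the arrays, with no member past 2-fold. Fos itself, the short-lived partner of c-Jun, had intensities of 4.5 on OP9-DL, 6.4 on OP9-GFP and 5.4 on OP9. These values straddle the brightness limit, so only their dimness can be stated. Fosb, known from neurons for its long-lived truncated form, had 33.5, 25.8 and 23.6, with OP9-DL 1.30-fold above OP9-GFP and 1.42-fold above OP9. Fosl1, the growth-linked family member also named Fra1, had 872.6, 735.6 and 669.7. OP9-DL was 1.19-fold above OP9-GFP and 1.30-fold above OP9, the same order as Fosb and Jun but within 2-fold. Fosl2, or Fra2, which is needed for normal bone and cartilage growth in mice, had 11.0, 10.6 and 11.5. Its 3 arrays lay within 1.08-fold, the narrowest range of the 10 factors.

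Egr1, the zinc finger factor most used as a readout of growth factor signalling, had 80.0 on the OP9-DL array, 142.5 on OP9-GFP and 138.4 on OP9. OP9-DL was the low array, and both other arrays were close to each other. It stood 1.78-fold under the OP9-GFP level and 1.73-fold under that of OP9. In OP9-DL against OP9-GFP, 3.92% of compared probes were at least as far below 0, and the gene lay just inside 2-fold. Egr2, known for its role in Schwann cells and the hindbrain, had 18.8, 20.9 and 13.0. Here OP9 was the low array, 1.61-fold below OP9-GFP. The Egr pair thus differed in which line was lowest.

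Nr4a1, also called Nur77, acts without a known natural ligand. Its probe had 63.8 on the OP9-DL array, 212.1 on OP9-GFP and 402.1 on OP9. The 3 arrays formed steps, with the ligand-expressing line lowest and the parental line highest. The OP9-DL level was 3.32-fold lower than that of OP9-GFP and 6.30-fold lower than that of OP9. OP9-GFP was 1.90-fold below OP9, just under the threshold. Of the compared probes 0.892% were at least as far below 0 in OP9-DL against OP9-GFP, and 1.03% in OP9-DL against OP9. Nr4a2, or Nurr1, a close relative that binds the same DNA element, had 17.5, 42.0 and 81.1 on the OP9-DL, OP9-GFP and OP9 arrays. It stood in the same order, 2.40-fold lower on OP9-DL than on OP9-GFP and 4.63-fold lower than on OP9, and was the only one past 2-fold of 3 comparable relatives and corepressors. Of all compared probes 5.03% were past 2-fold in OP9-DL against OP9-GFP and 11.2% in OP9-DL against OP9. Nr4a3 was blank on every array, and Egr3 was too dim to compare.

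The Nr4a1 promoter is shown because Nr4a1 had the widest range of the 10 factors. It lies on the plus strand of GRCm38.p6 at chr15:101266596-101266895. Capitals mark 4 copies of TGCGTCA, a shortened relative of the cAMP response element, which begin 235, 215, 71 and 42 bases before the start site.

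Nr4a1: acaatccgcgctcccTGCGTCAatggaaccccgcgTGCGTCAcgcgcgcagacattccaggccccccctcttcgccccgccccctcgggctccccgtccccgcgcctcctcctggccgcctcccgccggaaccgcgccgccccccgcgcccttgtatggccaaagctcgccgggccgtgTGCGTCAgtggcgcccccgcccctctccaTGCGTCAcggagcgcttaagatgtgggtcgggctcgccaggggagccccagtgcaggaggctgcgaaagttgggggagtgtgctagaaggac

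This element was also searched after the sequence had been read. It occurred at least once in 2.12% of the 32851 promoters, and among the factors with a listed promoter Fosb held a further copy, on the opposite strand. The Nr4a2 promoter window held no copy.

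Maff encodes a small Maf protein, which represses as a homodimer and activates when paired with a larger partner such as Nrf2. It had 97.7 on the OP9-DL array, 264.2 on OP9-GFP and 56.9 on OP9. OP9-GFP was the high array. OP9-DL was 2.70-fold below OP9-GFP and 1.72-fold above OP9, and OP9-GFP was 4.64-fold above OP9. In OP9-GFP against OP9, 0.449% of compared probes were at least as far above 0, and in OP9-DL against OP9-GFP 1.26% were at least as far below. The other small Maf genes were closer between the arrays. Mafk had 41.9, 55.4 and 33.0, and Mafg had 63.8, 62.5 and 63.9, both within 2-fold in each comparison.

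Of 3 start sites that RefSeq lists for Maff, the one whose promoter held the most listed motifs is shown, from the plus strand at chr15:79347270-79347569 of GRCm38.p6. Capitals mark the EGR element GCGTGGGCG, which begins 88 bases before the start site, and the full cAMP response element TGACGTCA, which begins 29 bases before it.

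Maff: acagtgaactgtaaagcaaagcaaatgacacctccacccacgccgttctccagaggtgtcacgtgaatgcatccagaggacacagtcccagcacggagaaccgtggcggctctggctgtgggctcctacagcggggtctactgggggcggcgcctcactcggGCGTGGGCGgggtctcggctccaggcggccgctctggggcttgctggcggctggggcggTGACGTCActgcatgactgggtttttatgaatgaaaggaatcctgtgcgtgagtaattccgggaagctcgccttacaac

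Promoters of 8 of the 10 factors, with 14 start sites in all, were in the RefSeq table, and the other 2 were Fosl1 and Egr1. The 6 listed motifs were searched on both strands. Their shares of all 32851 promoters were 1.79% for the cAMP response element TGACGTCA, 7.81% for the AP-1 element TGANTCA and 1.63% for the CArG box bound by serum response factor. They were 0.61% for the EGR element GCGTGGGCG, 3.89% for the ETS element CCGGAAGT and 13.62% for the TATA box TATAAA. A CArG box was found at 4 of 5 Egr2 start sites, and in no other factor's window. The windows of 3 of these starts overlap and hold the same box. A TATA box was found for Fos, beginning 33 bases before the start site, and for Junb at the listed start itself. Maff alone held the full cAMP response element and the EGR element, and no window held TGANTCA or CCGGAAGT. These are matches of letters in 300 bases, and the serum response element of Fos lies further upstream.

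**Figure D2:**
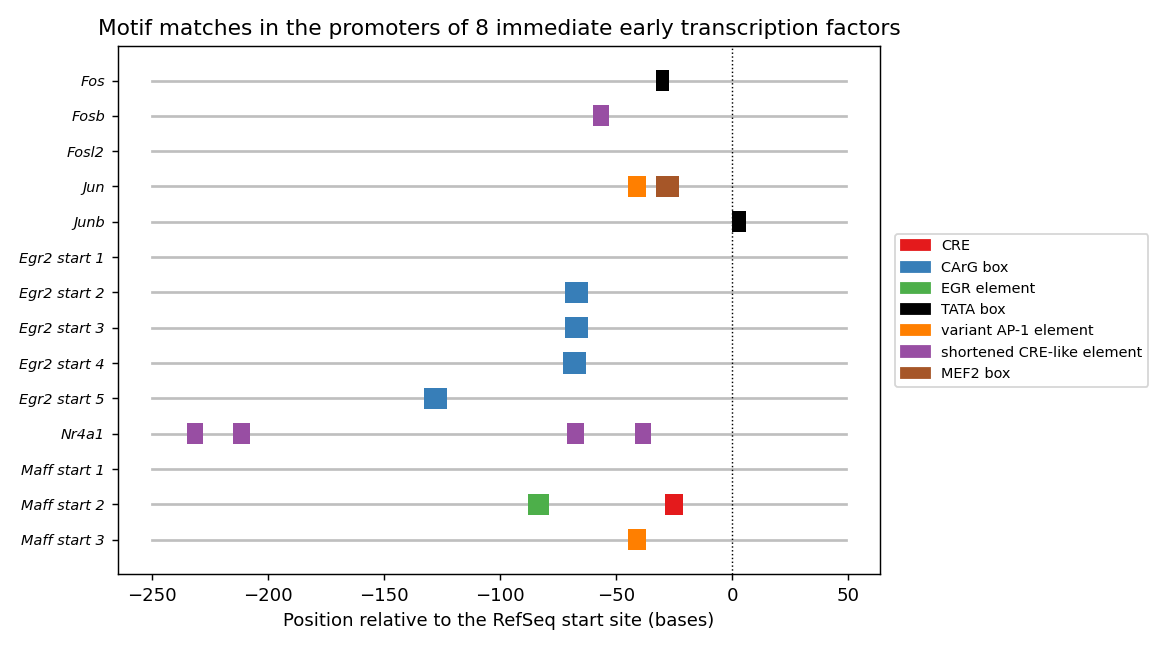
Motif matches (coloured boxes, width to scale) in the RefSeq promoters of 8 factors, 1 line per listed start site, against position in bases from the start site at 0. Nr4a1 holds 4 copies of the shortened element, 4 of 5 Egr2 starts hold a CArG box, and the second Maff start holds the CRE (cAMP response element) and the EGR element.

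In each comparison 7 of the 9 comparable factors stayed within 2-fold. In OP9-DL against OP9-GFP, 0 of 9 factors were at least 2-fold higher and 2 (Nr4a1 and Maff) were lower, where 2.31% of all compared probes were higher and 2.72% lower, 5.03% in all. The median log2 difference of the 9 was -0.15, beside -0.01 over all compared probes. In OP9-GFP against OP9, 2 of 9 (Jun and Maff) were higher and 0 lower, where 4.86% of probes were higher and 6.75% lower, 11.6% in all. Their median was 0.14, beside 0.02 over all. In OP9-DL against OP9, 1 of 9 (Jun) was higher and 1 (Nr4a1) lower, where 4.31% of probes were higher and 6.91% lower, 11.2% in all. The median there was 0.38, beside 0.02. The 3 comparisons share arrays, so these counts are not separate pieces of evidence.

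**Figure D3:**
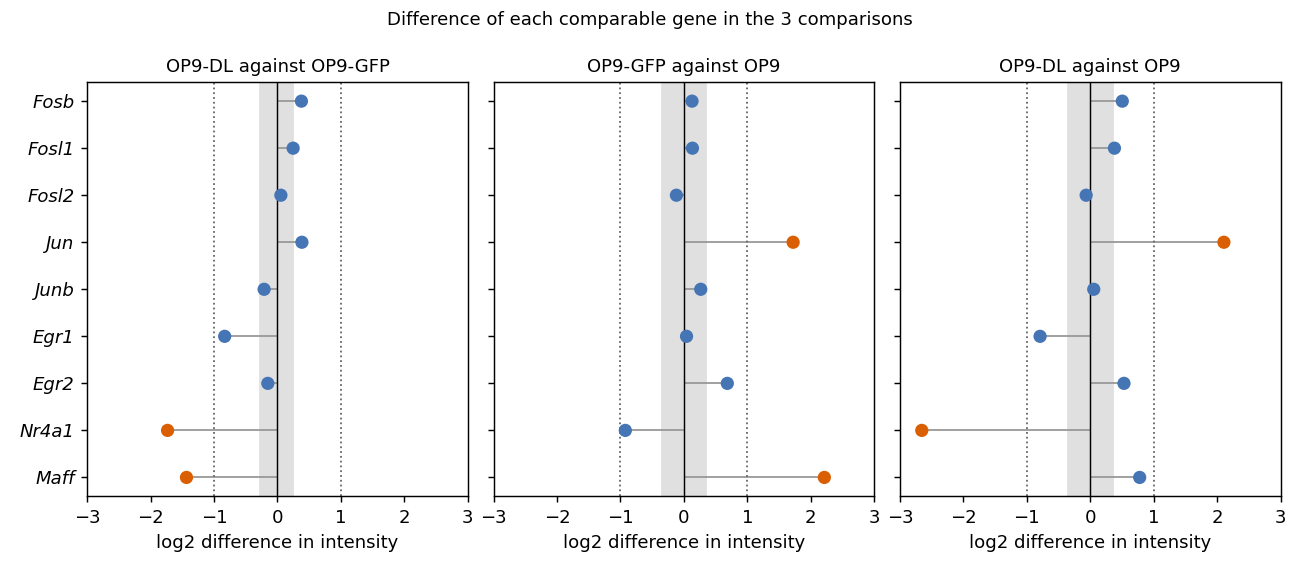
log2 difference in intensity of the 9 comparable factors in the 3 comparisons (horizontal axis), with 2-fold as dotted lines and the middle 50% of all compared probes as a grey band. Orange points are past 2-fold: Nr4a1 (-1.73) and Maff (-1.44) in OP9-DL against OP9-GFP, Jun (1.72) and Maff (2.22) in OP9-GFP against OP9, and Jun (2.11) and Nr4a1 (-2.66) in OP9-DL against OP9.

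**Figure D4:**
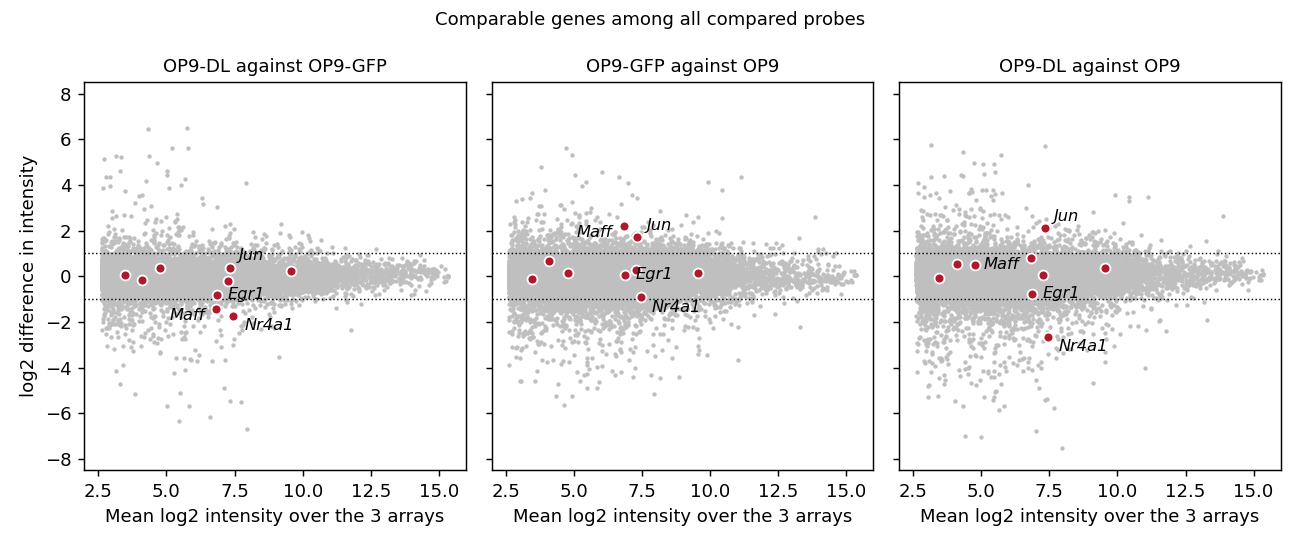
log2 difference (vertical) against mean log2 intensity (horizontal) for the 15581 compared probes in grey and the 9 comparable factors in red, with 2-fold as dotted lines. Jun, Maff and Nr4a1 each lie outside the dotted lines in 2 of the 3 panels, and Egr1 lies inside them in all 3.

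The AP-1 partners and related zipper factors were mostly close between arrays. Of 16 that could be compared, 1 was at least 2-fold higher and 1 lower in OP9-DL against OP9-GFP (median -0.21), where 2.31% and 2.72% of all compared probes were. On OP9-GFP relative to OP9, 0 were higher and 2 lower (median -0.06), where 4.86% and 6.75% of all probes were, and in OP9-DL against OP9 0 were higher and 2 lower (median -0.0011), where 4.31% and 6.91% were. Ddit3, the stress factor CHOP, had 640.7, 190.0 and 522.1 on the OP9-DL, OP9-GFP and OP9 arrays, so that OP9-GFP was the low array. It was 3.37-fold higher on OP9-DL than on OP9-GFP. Atf5, another factor of the stress response, had 482.4, 306.0 and 586.8. Jdp2, a repressor that pairs with Jun, had 7.2, 15.8 and 26.6, in the order of Nr4a1. Maf, a large relative of Maff, had 13.4, 21.3 and 13.7 and Atf2, a Jun partner at variant elements, had 29.9, 39.7 and 23.9, both within 2-fold. Batf2, an interferon-inducible zipper factor, had 3.6, 5.7 and 12.9, under the brightness limit on OP9-DL and OP9-GFP. Of the EGR corepressors, Nab1 had 148.0, 227.0 and 214.6, in the pattern of Egr1 but within 2-fold, and Nab2 had 183.7, 171.4 and 260.6. With Nr4a2 these were the 3 comparable relatives, and their medians were -0.62 in OP9-DL against OP9-GFP, -0.60 in OP9-GFP against OP9 and -0.54 in OP9-DL against OP9. The medians over all compared probes were -0.01, 0.02 and 0.02 in the same comparisons.

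Other immediate early genes, which encode secreted proteins, enzymes and further regulators, were mostly higher on OP9-GFP than on OP9. In OP9-GFP against OP9, 17 of 32 were at least 2-fold higher and 1 was lower, where 4.86% and 6.75% of all compared probes were, and the median was 1.14 beside 0.02 over all. In OP9-DL against OP9, 14 were higher and 4 lower (median 0.54), where 4.31% and 6.91% of all probes were. In OP9-DL against OP9-GFP 3 were higher and 8 lower (median -0.29), where 2.31% and 2.72% were. Edn1, the vasoconstrictor endothelin-1, had 71.7, 112.2 and 2.3 on the OP9-DL, OP9-GFP and OP9 arrays, with its OP9 value under the brightness limit. Ccn2, connective tissue growth factor, had 2884, 3524 and 256.2. Both were low on OP9 alone, as Jun was. Ccl2, a monocyte chemokine, had 789.3, 1831 and 298.6 and Thbs1, a matrix glycoprotein, had 172.5, 590.6 and 216.6, each highest on OP9-GFP, as Maff was. Arc, a synaptic plasticity gene, had 28.8, 12.0 and 4.5, and Klf4, a zinc finger regulator, had 1348, 615.8 and 1076. Arc was under the brightness limit on OP9. Rgs2, which limits G protein signalling, had 205.6, 169.8 and 360.3, and Nfkbiz, an inhibitor-like regulator of NF-kB, had 26.6, 59.5 and 112.1, in the order of Nr4a1.

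Genes that shut the response down were mostly within 2-fold. In both comparisons with OP9 the share past 2-fold was above that of all compared probes, on small counts. Of 20 feedback inhibitors, 0 were at least 2-fold higher and 1 lower in OP9-DL against OP9-GFP (median -0.08), near the 5.03% of all compared probes past 2-fold either way. In OP9-GFP against OP9 2 were higher and 2 lower (median 0.08), beside 11.6% of all probes either way, and in OP9-DL against OP9 3 were higher and 3 lower (median 0.19), beside 11.2%. Dusp1, a phosphatase that switches off stress kinases, had 336.7, 370.5 and 91.3 on the OP9-DL, OP9-GFP and OP9 arrays. It was 4.06-fold higher on OP9-GFP than on OP9, and OP9 was the low array, as for Jun. Dusp6, which acts on ERK, had 118.5, 71.3 and 48.8, and Dusp14, a related phosphatase, had 124.8, 77.7 and 78.2. Spry1, a brake on growth factor receptors, had 14.6, 33.0 and 9.5, highest on OP9-GFP. Rcan1, a calcineurin inhibitor, had 99.4, 150.7 and 131.2. Zfp36l1, which destabilises AU-rich messages, had 40.8, 47.8 and 201.8, and Tob1, an antiproliferative protein, had 165.3, 137.0 and 369.9, both highest on OP9.

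Upstream, the kinases and serum response factors were mostly within 2-fold. Of 29 compared, 0 were higher and 1 lower in OP9-DL against OP9-GFP (median -0.26), beside 5.03% of all compared probes either way. The counts in OP9-GFP against OP9 were 2 higher and 2 lower (median 0.25), beside 11.6%, and in OP9-DL against OP9 1 was higher and 1 lower (median 0.20), beside 11.2%. Egfr, the epidermal growth factor receptor, had 49.6, 114.5 and 76.9 on the OP9-DL, OP9-GFP and OP9 arrays, 2.31-fold lower on OP9-DL than on OP9-GFP. Pdgfra, a receptor for platelet-derived growth factor, had 127.1, 166.1 and 800.6, 4.82-fold lower on OP9-GFP than on OP9. These receptors thus differed in which line stood apart. Mapkapk2, a kinase downstream of p38, had 61.0, 87.8 and 31.6, and Map2k3, which activates p38, had 515.4, 846.8 and 434.0. Rps6ka5, a chromatin-directed kinase, had 9.5, 10.8 and 4.4 and Map2k5 had 81.1, 75.8 and 159.8. The OP9 value of Rps6ka5 was under the brightness limit. Elk3, a partner of serum response factor, had 64.0, 49.9 and 47.2. The Rps6ka1 probes, for an ERK-activated kinase, disagreed: they read 41.5, 35.5 and 36.0, and 67.2, 28.7 and 27.6.

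Textbook AP-1 and EGR1 targets showed no common direction. Of 17 compared, 0 were higher and 3 lower in OP9-DL against OP9-GFP (median -0.14), where 2.31% and 2.72% of all compared probes were. The counts in OP9-GFP against OP9 were 4 higher and 2 lower (median 0.27), where 4.86% and 6.75% were, and in OP9-DL against OP9 2 were higher and 3 lower (median 0.13), where 4.31% and 6.91% were. Il6, an inflammatory cytokine, had 13.7, 174.7 and 88.0 on the OP9-DL, OP9-GFP and OP9 arrays, with OP9-DL the low array. Tnc, the matrix protein tenascin-C, had 59.5, 159.6 and 9.0, highest on OP9-GFP. Pdgfa, a growth factor with EGR elements in its promoter, had 110.3, 165.9 and 66.8. Pdgfb had 9.4, 6.0 and 5.9, under the brightness limit on OP9-GFP and OP9. Mmp13, a collagenase induced through AP-1, had 2.9, 6.9 and 39.8, and Spp1, osteopontin, had 6878, 5611 and 26149. Both were highest on OP9, the array on which Jun was lowest. The 4 targets at least 2-fold higher on OP9-GFP than on OP9 were instead lowest on OP9, as Jun was. They were Tnc, Pdgfa, Plaur (1070, 1043 and 428.0) and Lox (1114, 1176 and 569.8). A link of these targets to Jun was not tested. On OP9-DL Mmp13 was under the brightness limit. Plau, a plasminogen activator, had 8.9, 6.8 and 5.8, within 2-fold and under the limit on OP9.

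**Figure D5:**
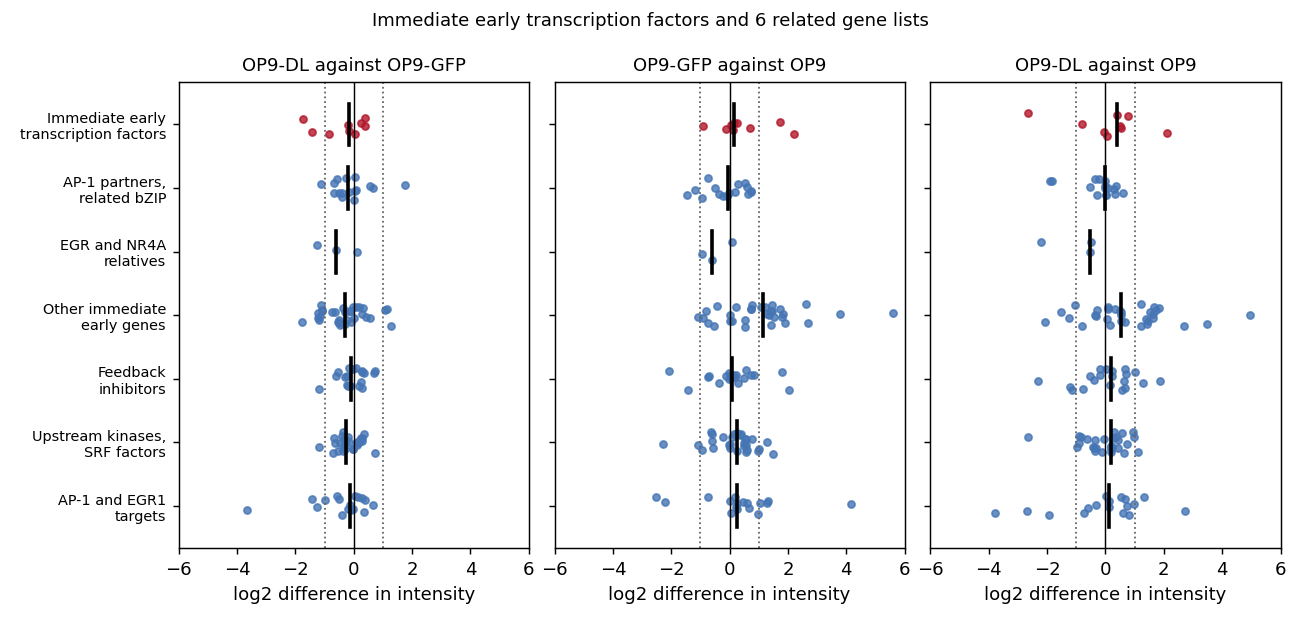
log2 difference in intensity (horizontal axis) of each comparable gene in the 10-factor group (red, 9 genes) and 6 related lists (blue), with the list's median as a black bar and 2-fold as dotted lines. The other immediate early genes have their median at 1.14 in OP9-GFP against OP9, while the factors have theirs at 0.14.

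The order of the 3 arrays also varied among the factors. Fosb, Fosl1 and Jun were highest on OP9-DL and lowest on OP9, 3 of 9, where 18.8% of all compared probes had that order. Junb, Egr2 and Maff were highest on OP9-GFP and lowest on OP9, with OP9-DL between, also 3 of 9, where 20.4% of all probes had it. That order was also the most frequent among 119 compared probes of the 6 lists, with 42 of them, 35.3%. Egr1, Nr4a1 and Fosl2 each had an order of their own. For Fosb, Fosl1, Fosl2, Junb and Egr2 all neighbouring values lay within 1.5-fold, so their order rests on small differences between single arrays.

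Genes with the most similar pattern were looked up for the 3 factors of widest range, by the distance between log2 values centred on each gene's mean over the 3 arrays, among 2049 named genes with a range of 2-fold or more. For Nr4a1 they were Ctsk, the collagen-degrading protease cathepsin K (25.4, 90.2 and 165.7 on OP9-DL, OP9-GFP and OP9), Il12rb1, an interleukin receptor chain (4.6, 17.2 and 28.6), and Irx3, a homeobox factor (12.2, 43.9 and 71.4). Their distances were 0.07, 0.15 and 0.16. For Maff they were Tslp, an epithelial and stromal cytokine (6.0, 16.9 and 3.8), Ctla2a, a protease inhibitor (35.2, 108.5 and 22.1), and Srxn1, the antioxidant enzyme sulfiredoxin (313.2, 737.4 and 183.3), at 0.09, 0.13 and 0.17. For Jun they were Il17d, a cytokine (13.3, 9.7 and 3.1), Sgpp1, a sphingosine phosphate phosphatase (30.8, 22.4 and 6.7), and Hoxa10, a homeobox factor (57.6, 41.1 and 12.5), at 0.06, 0.07 and 0.08. Over 3 arrays such likeness is a description only, since many genes can follow any given shape. Il12rb1, Tslp and Il17d also fell under the brightness limit on the arrays where they were lowest, and Tslp did so on OP9-DL too.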

How the data were processed

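Per the labels' protocols, column-purified total RNA was amplified with amino allyl nucleotides, and Cy5 coupling and fragmentation followed Toray's instructions. On each of the 3 one-colour arrays the deposited value is a linear intensity per probe, and the authors scaled each array to a median of 20, as the values show. Blank cells made up 6.62%, 6.53% and 6.32% of probes on the OP9-DL, OP9-GFP and OP9 arrays. The rule behind them, the scanner and the background correction were not given in the sources used here. Intensities were used without further scaling and log2 was taken with no constant. Gene names came from the platform annotation, updated through RefSeq symbols of GRCm38.p6. Several probes of a gene were averaged on the log2 scale. The factors, lists and tests were chosen with earlier results of these data known. Named list genes are the 2 highest and 2 lowest in OP9-DL against OP9-GFP and in OP9-GFP against OP9. Others named beside them (Nr4a3, Mafg, Plaur, Lox, markers) were chosen after their values were seen. Promoter sequences are from RefSeq. Alternatives were quantile, median and lowess scaling (span 0.3), other brightness limits, a constant of 2 before log2, blanks at the lowest value, the brightest probe, and thresholds of 1.5-fold and 3-fold. The counting code was checked on simulated data with large shifts and an assumed noise level, which says nothing about the spread between cultures. Python 3.11.15, numpy 2.4.6, pandas 2.3.3, statsmodels 0.14.6 and matplotlib 3.10.9 were used.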

Additional observations from a re-analysis of the deposited data

How the results depend on the processing

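The 9 comparable factors kept the sign of their differences, and their side of 2-fold, in all 3 comparisons. This held under quantile, median and lowess scaling and with the added constant. The treatment of blanks, the choice of probe and the brightness limit could not change these differences. Each factor has 1 probe, and the 9 had values on all 3 arrays. With a limit at the 50th percentile 7 factors remained, since Fosl2 and Egr2 dropped out, and Fos was not followed singly. Without a brightness limit, 1343 probes were past 2-fold in OP9-DL against OP9-GFP, and 457 with the 50th percentile limit, against 784 as reported. In OP9-GFP against OP9 these counts were 2443 and 1302, against 1808. With no limit on dim probes, or with blanks at the lowest value, Fos entered and the median of the factors in OP9-DL against OP9 was 0.22, against 0.38. At a 3-fold threshold 1 factor, Nr4a1, was lower in OP9-DL against OP9-GFP. At a 1.5-fold threshold 3 factors were lower in OP9-DL against OP9-GFP, 3 were higher and 1 lower in OP9-GFP against OP9, and 2 were higher and 2 lower in OP9-DL against OP9. The share of all compared probes was not computed at 1.5-fold and 3-fold. Whether these counts exceed it therefore cannot be stated. Of 105 recomputed counts and medians, 97 stayed within 1.5 times the reported count or 0.1 of the reported median, and 8 did not. The 97 include factor counts and medians that could not change, such as those under the choice of probe. Each factor rests on 1 probe and 1 array a line, which limits what can be stated about the lines.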

Other observations

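Several listed genes stood in the order of Nr4a1, lowest on OP9-DL and highest on OP9, with OP9-DL at least 2-fold below OP9. They were picked after their values were seen. Btg2, an antiproliferative immediate early gene, had 21.8, 46.3 and 62.6 on the OP9-DL, OP9-GFP and OP9 arrays. Ereg, an epidermal growth factor family ligand, had 127.5, 181.6 and 304.3, Cxcl1, a neutrophil chemokine, had 102.3, 148.3 and 212.6, and Spred3, a brake on the Ras pathway, had 38.5, 55.6 and 90.1. Of the 119 compared probes of the 6 lists 17 had this order, 14.3%, where 18.5% of all compared probes did. Neither share requires a 2-fold difference. Among the 2740 compared probes with a range of 2-fold or more, 26.1% had this order.

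Atf3, a stress-induced zipper factor and Jun partner, averaged below the brightness limit, with 9.4 on the OP9-DL array, 3.2 on OP9-GFP and 2.4 on OP9. Crem, whose short form is a repressor of cAMP response elements, was dimmer still, with 3.6, 2.9 and 1.1. Atf3 was above the limit on OP9-DL alone, and Crem on no array. Since both averaged under it, their differences were not read.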
